A study of Mus musculus with 80 samples.

Results

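The genes described here are Myc, which is carried as an extra copy by every tumour of the series, and 7 genes of the network around its partner Max, namely Mycn, Max itself, Mxd1, Mxd3, Mxd4, Mxi1 and Mnt. They were chosen by name, and all of their probe sets were taken: 17 of the 22626 probe sets that are not array controls, for 8 of the 12393 genes that have a probe set of their own. Of these, 10 probe sets of 6 genes lay above the threshold for dim probe sets (an intensity above 74.6 on at least 10 arrays), while no probe set of Mycn or Mxd1 did.

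Myc is a transcription factor of the basic helix-loop-helix leucine zipper class that binds the DNA word CACGTG, the E-box, as a dimer with Max, and raises genes of ribosome building, metabolism and growth. Max also pairs with Mnt and with the Mxd proteins (Mxd1, Mxd3, Mxd4 and Mxi1, which is also called Mxd2), and these dimers recruit Sin3 and histone deacetylases to the same DNA word and lower its genes. In many tissues the Mxd genes rise as cells leave the cycle and mature, except Mxd3, which is known from dividing cells, and E2F factors, whose genes the study varied, act beside Myc at genes of the start of DNA replication.

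All 80 tumours came from mammary glands of FVB mice that carried the MMTV-Myc transgene, in which the promoter of the mouse mammary tumour virus drives Myc in the mammary epithelium, and they were flash frozen at endpoint. The mice were wild type for the E2F genes, E2F1 null, E2F2 null or E2F3 heterozygous, with 20 tumours of each genotype and 1 array for each tumour, so that no group lacks the transgene. The numbers before the hyphen in the tumour labels took 53 values (16 in the wild type, 16 in the E2F1 null, 11 in the E2F2 null and 10 in the E2F3 heterozygous group), and 46 arrays shared theirs with another array. The sources used here do not say what such a number stands for, and the tests below treat arrays with the same number as related. The age and sex of the mice and whether the tumours of one number came from one animal is not stated either.

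Values are Affymetrix MAS5 intensities, each array scaled to a trimmed mean between 499.92 and 499.94, and log2 values are log2(intensity + 5), on which fold changes of dim genes are understated. The luminal markers Krt8, Krt18, Epcam and Cdh1 were above the threshold on 80 of 80 arrays, as markers of the labelled tissue. E2f1 in the E2F1 null tumours was lower than in the wild type by one probe set (1431875_a_at, -0.59 log2, SE 0.13, limma adjusted p = 0.0542), lower than in the E2F2 null (-0.77, adjusted p = 0.00055) and the E2F3 heterozygous tumours (-0.85, adjusted p = 8.08e-05), while another probe set was at -0.18 against the wild type (1417878_at, unadjusted p = 0.0774). E2f3 in the E2F3 heterozygous tumours was at -0.19 log2 against the wild type (1427462_at, SE 0.12, unadjusted p = 0.103), and E2f2 has no probe set of its own in the table used. The bacterial control RNAs added to each sample (24 probe sets) put the arrays into a set of 54 with low and a set of 26 with high control signal, with 8 high arrays in the E2F3 heterozygous group and 6 in each of the other groups. The sets came from the joint pattern of these probe sets, not from a cutoff on their level: the mean control signal ran from 9.07 to 10.3 log2 on the high arrays and from 8.30 to 9.66 on the low ones, so that the sets overlap in level, also within the wild type and the E2F1 null group. This split was found after the data were seen.

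Mxd4 and Mnt moved together across the tumours, and Mycn is the member with the E2F word. Mxd3 had the only member probe set called between genotypes, a dim one that was not called against the wild type. For these reasons the DNA just before the start of these 4 genes is shown. These are the 250 bases before the annotated start from RefSeq (GRCm38.p6), written 5′ to 3′ on the strand of the gene, with matches to the E-box CACGTG or to the E2F words TTTCGCGC, TTTGGCGC, TTTCCCGC and TTTGCCGC (either strand) in capitals. The windows are chr5:34187711-34187960 (minus strand) for Mxd4, chr11:74830674-74830923 (plus) for Mnt, chr12:12941837-12942086 (minus) for Mycn and chr13:55329732-55329981 (minus) for Mxd3.
Mxd4: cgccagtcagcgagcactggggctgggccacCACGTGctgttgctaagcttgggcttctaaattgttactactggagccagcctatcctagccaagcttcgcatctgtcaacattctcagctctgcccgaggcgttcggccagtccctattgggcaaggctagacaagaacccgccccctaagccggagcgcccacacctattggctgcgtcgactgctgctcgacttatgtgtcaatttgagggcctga
Mnt: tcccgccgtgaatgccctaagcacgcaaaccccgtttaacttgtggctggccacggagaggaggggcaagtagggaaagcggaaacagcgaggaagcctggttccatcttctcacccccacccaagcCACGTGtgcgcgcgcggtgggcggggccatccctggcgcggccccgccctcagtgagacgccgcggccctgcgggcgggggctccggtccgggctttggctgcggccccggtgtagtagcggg
Mycn: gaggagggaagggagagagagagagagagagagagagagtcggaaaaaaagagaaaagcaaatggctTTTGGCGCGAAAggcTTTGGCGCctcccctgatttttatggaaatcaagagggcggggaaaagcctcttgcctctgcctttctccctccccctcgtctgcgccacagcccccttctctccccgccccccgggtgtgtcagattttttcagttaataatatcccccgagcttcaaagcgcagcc
Mxd3: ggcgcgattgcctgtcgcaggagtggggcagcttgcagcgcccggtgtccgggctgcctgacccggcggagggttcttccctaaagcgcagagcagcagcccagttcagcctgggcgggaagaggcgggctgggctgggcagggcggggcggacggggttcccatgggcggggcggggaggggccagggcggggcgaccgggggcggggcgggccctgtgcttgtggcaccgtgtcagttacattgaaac
Mxd4 has 1 E-box, at bases -219 to -214 from its start, and Mnt has 1, at -123 to -118. An E-box stood in 1978 of 32851 such windows over all genes, which is 6.02%. Mycn has 3 E2F words, which overlap in part: TTTGGCGC at -183 to -176, TTTCGCGC on the opposite strand at -179 to -172 and TTTGGCGC at -168 to -161. An E2F word stood in 611 windows, which is 1.86%. Neither word stood in the windows of Mxd3, Max, Mxd1 and Mxi1, and Myc was not matched in the promoter table. A match says only that these letters are there.

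Myc was high in every tumour and varied little between tumours. Its single probe set, 1424942_a_at (chromosome 15), read a lowest, median and highest intensity of 7911.5, 11764 and 13677 in the wild type, 5700.5, 12091 and 14750 in the E2F1 null, 7079, 12090 and 15544 in the E2F2 null and 6955.5, 11332 and 15091 in the E2F3 heterozygous tumours. The ranges of the 4 genotypes overlapped, and every tumour was far above the threshold. Above every wild type tumour lay 2 of 20 E2F1 null, 6 of 20 E2F2 null and 2 of 20 E2F3 heterozygous tumours. In each of these groups 1 tumour lay below every wild type tumour. Against the wild type, Myc differed by 0.01 log2 in the E2F1 null (SE 0.09), by 0.07 in the E2F2 null (SE 0.09) and by -0.02 in the E2F3 heterozygous tumours (SE 0.09), none past the test. Over the 80 tumours its SD was 0.26 log2, at the 23.6th percentile of the 8769 tested genes, whose median SD was 0.36. The sources used here do not say whether this probe set reads the transgene, the mouse's own Myc or both, so the 2 cannot be told apart.

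Mycn, the neural paralogue of Myc, was dim in nearly all tumours. Its brightest probe set, 1425923_at (chromosome 12), had medians of 21.3 in the wild type, 21.2 in the E2F1 null, 13.3 in the E2F2 null and 15.2 in the E2F3 heterozygous tumours, and its highest value was 86.7. It passed the threshold on 4 of 80 arrays, 1 in each genotype, 1417155_at on 1 array and 1425922_a_at on 0. The 3 probe sets did not move together (Pearson r between -0.13 and 0.01 over 80 arrays), so a relation of Mycn below rests on 1425923_at alone.

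Max, the partner that all these proteins need, was measured by 1423501_at (chromosome 12) above the threshold on all 80 arrays, and no difference between genotypes passed the test. The lowest, median and highest intensities were 123.38, 372.86 and 734.1 in the wild type, 129.16, 336.15 and 662.35 in the E2F1 null, 143.96, 331.08 and 623.51 in the E2F2 null and 117.96, 438.63 and 610.81 in the E2F3 heterozygous tumours. Against the wild type the log2 differences were 0.08 (SE 0.23), -0.03 (SE 0.24) and 0.05 (SE 0.24), in the same order. Max varied widely all the same, with an SD of 0.74 log2 at the 83.3rd percentile of the tested genes.

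That spread followed the control RNAs rather than the genotype. On the 26 arrays with high control signal Max had a lowest, median and highest intensity of 117.96, 165.51 and 586.8, and on the 54 arrays with low control signal of 277.58, 452.7 and 734.1. In the wild type, the E2F1 null and the E2F2 null tumours no array of one set reached into the other, and in the E2F3 heterozygous group the high arrays ran from 117.96 to 586.8 and the low arrays from 277.58 to 610.81. The mean difference, high minus low, was -1.33 log2, with -1.60 in the wild type, -1.40 in the E2F1 null, -1.17 in the E2F2 null and -1.22 in the E2F3 heterozygous group. Only 9 of the 8769 tested genes (0.103%) differed by more, and the median size over all tested genes was 0.11. Arrays that share a label number resembled each other in Max (intraclass correlation 0.74 within genotypes), and no longer did so once the control set was taken out as well (-0.12). The part of sample handling in the level of Max was not tested.

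**Figure D1:**
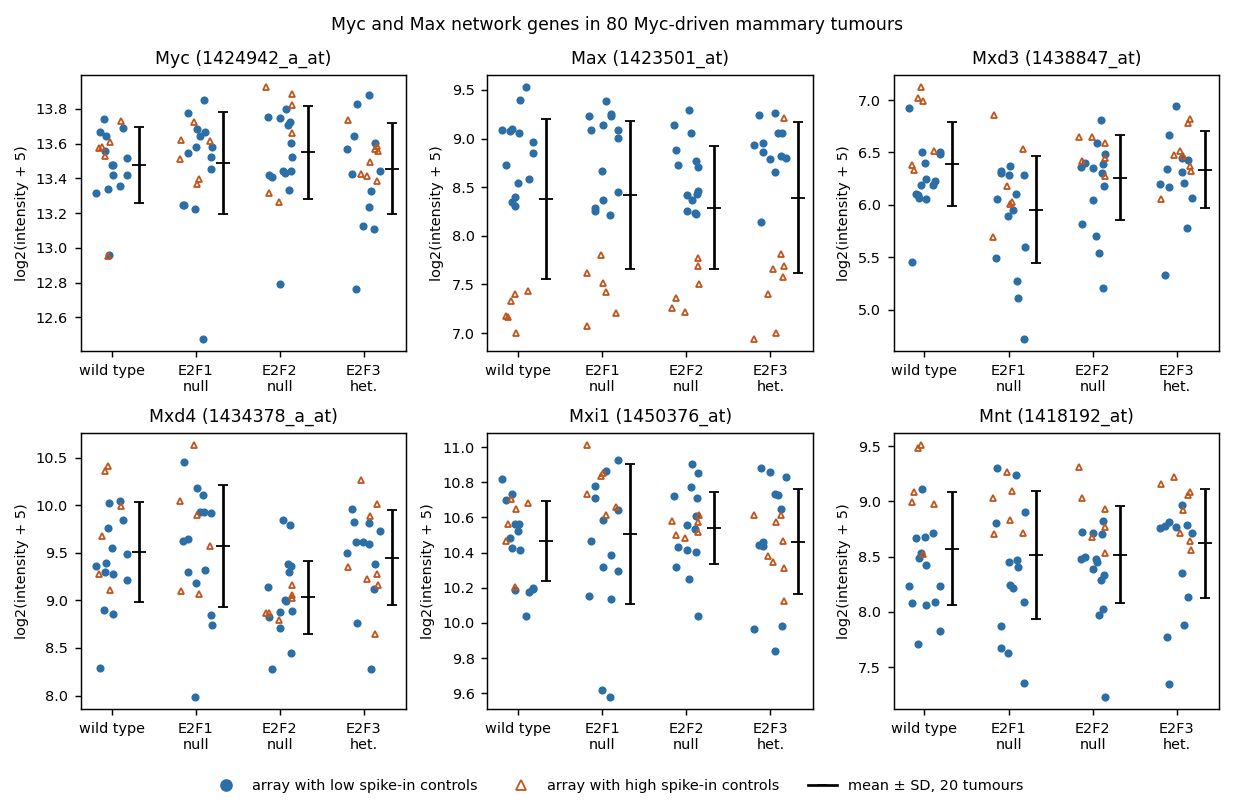
Log2(intensity + 5) of the 6 members above the threshold in each of the 80 tumours by genotype, with circles for arrays of low and triangles for arrays of high control RNA signal, and bars for the mean ± SD of 20 tumours. Myc lies between 12.48 and 13.93 in all genotypes, Max falls into 2 bands that follow the control RNAs, and Mxd4 is lowest on average in the E2F2 null tumours (9.03 against 9.51 in the wild type).

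Of the members, none passed the genotype test when each gene was read by its brightest probe set, where limma called 0.0456% of genes between the E2F1 null and the wild type, 0.0228% between the E2F2 null and the wild type and 0% between the E2F3 heterozygous tumours and the wild type. Before adjustment, 1 of 6 members had p under 0.05 in the E2F1 null (Mxd3), as had 112 of 8769 genes. In the E2F2 null it was 1 member (Mxd4) and 538 genes, and in the E2F3 heterozygous tumours 0 members and 58 genes. Between the mutant genotypes no member was called either. There limma called 0.16% of genes between the E2F1 null and the E2F2 null and 0.0798% between the E2F1 null and the E2F3 heterozygous. Between the E2F2 null and the E2F3 heterozygous tumours it called 0.0342%. In that order 2, 1 and 1 members were under 0.05 unadjusted, beside 840, 298 and 660 of 8769 genes. Over all 4 genotypes together limma called 0.148% of genes and no member, with 2 members and 372 of 8769 genes under 0.05 unadjusted. By probe set, including the dim ones, limma called 0 of the 17 member probe sets in the 3 comparisons with the wild type. The background was 0.0589%, 0.0245% and 0.00491% of 20380 probe sets. Under 0.05 unadjusted were 3, 3 and 0 of the 17, beside 423, 1179 and 299 of all 20380. It called 1 of 17, a probe set of Mxd3, between the E2F1 null and the E2F2 null (background 0.167%). The same held between the E2F1 null and the E2F3 heterozygous tumours (background 0.0932%) and over all 4 genotypes (background 0.162%). Between the E2F2 null and the E2F3 heterozygous tumours limma called 0 of 17 (background 0.0393%). There 4 of the 17 and 1445 of all 20380 probe sets were under 0.05 unadjusted.

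Mxd3, the Mxd gene known from S phase, was lowest over all arrays in the E2F1 null tumours by each of its 3 probe sets (chromosome 13, which also holds E2f3). By 1448878_at the lowest, median and highest intensities were 10.5, 24.9 and 50.3 in the wild type, 3.73, 14.3 and 41.9 in the E2F1 null, 11.02, 26.99 and 61.02 in the E2F2 null and 11.6, 30.3 and 56.2 in the E2F3 heterozygous tumours. The groups overlapped, but 17 of 20 E2F1 null tumours lay below the wild type median and 6 lay below every wild type tumour. All 80 values of this probe set were under the threshold for dim probe sets, so its level is close to background.

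In the limma fit by probe set, 1448878_at was lower in the E2F1 null tumours than in the E2F3 heterozygous by -0.93 log2 (SE 0.19, adjusted p = 0.00451) and than in the E2F2 null by -0.83 (SE 0.19, adjusted p = 0.0194). Against the wild type the difference was -0.76 (SE 0.18, p = 7.01e-05), rank 16 of 20380 by p, with an adjusted p of 0.0893. That adjusted p was 0.0462 with arrays taken as independent and 0.271 on the means over arrays that share a label number. It was 0.0174 without E2F1 null replicate 6, the tumour with the highest value in that group (41.9). On label-number means the differences from the E2F2 null and the E2F3 heterozygous tumours missed the threshold too (adjusted p = 0.100 and 0.0733), and the test over all 4 genotypes kept it (adjusted p = 0.0371). Within the arrays of low control signal the difference from the wild type was -0.89 (adjusted p = 0.137), and within the high ones -0.52 (adjusted p = 0.999).

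The brighter Mxd3 probe set, 1438847_at, read 38.7, 77.1 and 134 in the wild type, 21.4, 60.9 and 111 in the E2F1 null, 31.9, 78.1 and 107 in the E2F2 null and 35.4, 76.9 and 118 in the E2F3 heterozygous tumours (lowest, median and highest). It was above the threshold in 4 E2F1 null tumours, against 11 wild type, 12 E2F2 null and 13 E2F3 heterozygous ones. The difference of the E2F1 null from the wild type was -0.44 log2 (SE 0.14, p = 0.00226), which did not pass adjustment over all probe sets. The third probe set, 1422970_at, had medians of 16.6 in the wild type, 6.97 in the E2F1 null, 18.3 in the E2F2 null and 11.4 in the E2F3 heterozygous tumours, and a difference of -0.55 (SE 0.27, p = 0.0473) in the E2F1 null that did not pass either. Within the arrays of high control signal 1422970_at was not lowest in the E2F1 null, with a mean of 4.22 log2 against 3.92 in the wild type. Within the low arrays these means were 3.63 and 4.60. The 3 probe sets followed each other weakly over the 80 arrays (r = 0.36, 0.44 and 0.12).

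**Figure D2:**
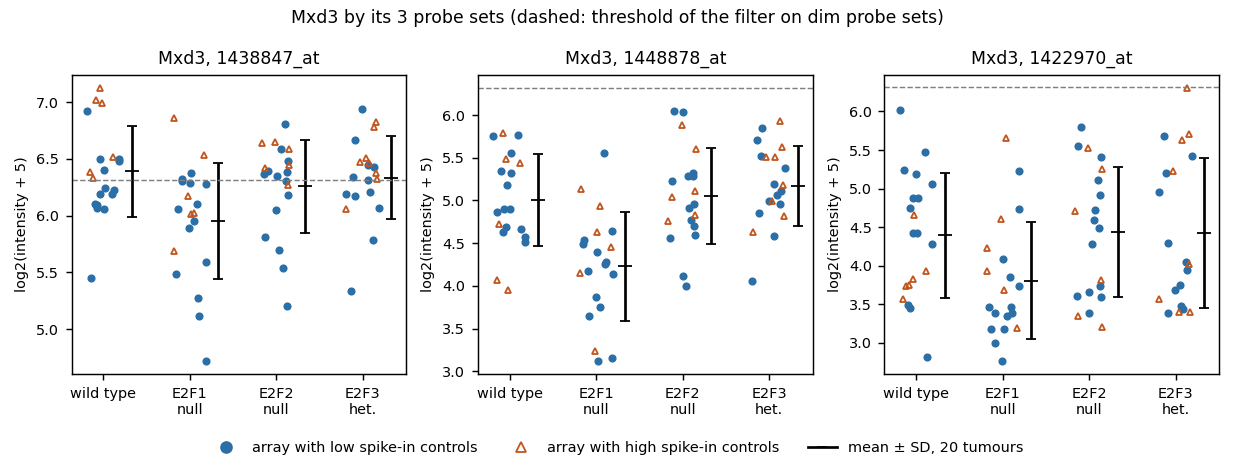
Log2(intensity + 5) of Mxd3 by its 3 probe sets in 20 tumours of each genotype, with bars for mean ± SD, circles and triangles for arrays of low and high control RNA signal, and a dashed line at the threshold for dim probe sets. The E2F1 null tumours have the lowest mean in each panel (5.95, 4.23 and 3.81 from left to right), and all values of the middle and right panels lie under the line.

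Mxd4, a repressor partner of Max, was lowest in the E2F2 null tumours. Its brightest probe set, 1434378_a_at (chromosome 5), had a lowest, median and highest intensity of 308.8, 691.39 and 1357.7 in the wild type, 248.69, 789.72 and 1579.6 in the E2F1 null, 304.88, 507.15 and 915.16 in the E2F2 null and 306.38, 742.15 and 1225.9 in the E2F3 heterozygous tumours. The E2F2 null values sat in the lower part of the wild type range, with 18 of 20 below the wild type median and 1 below every wild type tumour. By gene the E2F2 null differed from the wild type by -0.49 log2 (SE 0.17, p = 0.00531) and the E2F1 null from the E2F2 null by 0.56 (SE 0.17, p = 0.0017), and neither passed adjustment (limma adjusted p = 0.760 and 0.384).

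The other Mxd4 probe sets did not all follow. 1434379_at, which tracked the first closely (r = 0.88), was at -0.43 in the E2F2 null against the wild type (SE 0.16), and 1422574_at (r = 0.46 with the first) was at -0.43 (SE 0.15). In contrast 1422575_at, which did not track the others (r between -0.04 and 0.02) and passed the threshold on 10 arrays, was at 0.05 (SE 0.14). Within the control sets the E2F2 null difference of 1434378_a_at was -0.32 on the low and -0.90 on the high arrays.

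Mxi1 and Mnt, the other repressors that were well above the threshold, had no difference between genotypes that passed. Mxi1 by 1450376_at (chromosome 19) had medians of 1446.3 in the wild type, 1576.8 in the E2F1 null, 1490.6 in the E2F2 null and 1406.4 in the E2F3 heterozygous tumours, with all 80 values between 760.19 and 2057.5. Its second probe set, 1425732_a_at, had medians of 279.3, 288.09, 326.05 and 267.06 in that order and followed the first only in part (r = 0.41). Mnt by 1418192_at (chromosome 11) had medians of 364.76, 380.82, 360.88 and 429.4, with values from 145.31 to 723.14. By 1450376_at and 1418192_at the genotype differences from the wild type were at most 0.08 log2 for Mxi1 (SE 0.10) and 0.09 in size for Mnt (SE 0.17). For each the 4 ranges overlapped. These maxima do not cover the second probe sets. Between the E2F2 null and the wild type, 1425732_a_at of Mxi1 ranked 1788 of 20380 by p and was not called. Mnt was 0.59 log2 higher on the arrays with high control signal, and 1425732_a_at of Mxi1 was 0.46 lower there. The second Mnt probe set, 1418193_at, was under the threshold on all arrays and did not follow the first (r = -0.09).

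Mxd1, a repressor of maturing cells, was at background. Its probe set 1422002_at (chromosome 6) had medians of 4.96 in the wild type, 5.02 in the E2F1 null, 4.79 in the E2F2 null and 5.68 in the E2F3 heterozygous tumours, with single tumours up to 39.3, and was under the threshold on all 80 arrays.

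In order of their mean log2 levels, the genotypes ran E2F3 heterozygous (13.46), wild type (13.48), E2F1 null (13.49) and E2F2 null (13.55) for Myc, and E2F2 null (8.29), wild type (8.37), E2F3 heterozygous (8.39) and E2F1 null (8.42) for Max. For Mxd4 by 1434378_a_at the order was E2F2 null (9.03), E2F3 heterozygous (9.45), wild type (9.51) and E2F1 null (9.57). Neighbours in the order lay further apart than the SD of at least one of them in 2 places among the 17 probe sets: E2F1 null and wild type for 1448878_at of Mxd3, and E2F2 null and E2F3 heterozygous for 1434378_a_at of Mxd4, where the gap exceeded the smaller SD only (0.38) and did not pass (by gene -0.42, SE 0.18, limma adjusted p = 0.633).

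The relations of the members to each other were taken over the 53 label numbers, each the mean of its arrays and centred on its genotype, with 100000 permutations and Benjamini-Hochberg adjustment over 28 pairs. Of these, 6 passed. Mxd4 and Mnt rose together (r = 0.55, permutation adjusted p = 0.00056, Spearman rho = 0.51, and r = 0.50 without the 2 label numbers farthest from the median). Within the arrays of low control signal r was 0.48 over 38 label numbers, and within the high ones 0.83 over 16. Both genes encode repressor partners of Max and both had the E-box shown above. Both also rose with the median log2 value of the array (r = 0.34 for each). With the 3′ to 5′ balance of the Gapdh control, a measure of RNA quality, r was 0.26 for Mxd4 and 0.49 for Mnt.

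Myc had 3 of the 6 relations. It rose with Mxi1 (r = 0.54, permutation adjusted p = 0.00112, rho = 0.39) and with the dim Mycn probe set (r = 0.47, adjusted p = 0.00231, rho = 0.39), and it moved against Mnt (r = -0.41, adjusted p = 0.0116, rho = -0.32). By rank the relation with Mnt did not pass (adjusted p = 0.102), whereas with the control set taken out it passed on both measures (r = -0.56 and rho = -0.53, each with adjusted p = 0.00028). Without the 2 farthest label numbers these relations were 0.33 for Mxi1, 0.39 for Mycn and -0.30 for Mnt. The farthest was E2F1 null replicate 6, with both the lowest Myc (5700.5) and the lowest Mxi1 (760.19) of the 80 tumours. Without it r was 0.36 for Mxi1 (adjusted p = 0.0445), 0.42 for Mycn and -0.36 for Mnt (adjusted p = 0.0445).

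Max had no relation to Myc that passed (r = -0.00, permutation adjusted p = 0.985). With the control set taken out r was 0.18 (adjusted p = 0.389), with 0.25 within the low and -0.08 within the high arrays. Max moved against Mxd3 (r = -0.47, permutation adjusted p = 0.00231, rho = -0.49, r = -0.43 without the 2 farthest) and against Mnt (r = -0.44, adjusted p = 0.00459, rho = -0.42, r = -0.44 without the 2 farthest). Neither of these passed with the control set taken out. For Mxd3 the direction stayed, with r = -0.26 (adjusted p = 0.246), -0.28 within the low and -0.21 within the high arrays. For Mnt the sign turned, with r = 0.19 (adjusted p = 0.389), 0.15 within the low and 0.47 within the high arrays. No pair had a relation that differed between the genotypes after adjustment: 0 of 28 by a permutation test of the interaction, with 2 under 0.05 unadjusted. The lowest was Mxd3 with Mxd4 (p = 0.0107, adjusted p = 0.298), where r was 0.81 in the wild type, -0.22 in the E2F1 null, -0.39 in the E2F2 null and -0.19 in the E2F3 heterozygous tumours.

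**Figure D3:**
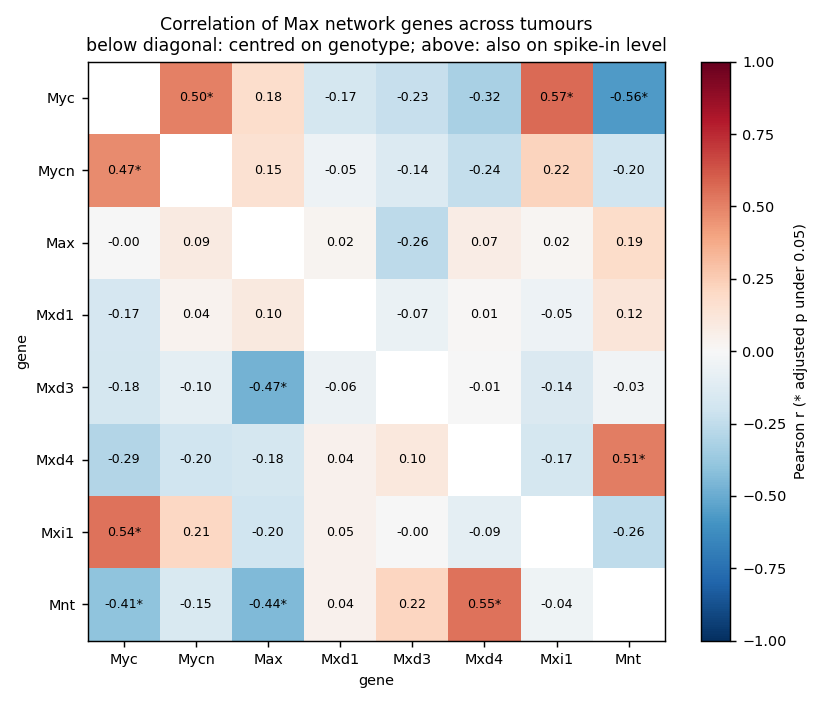
Pearson r between the 8 members over 53 label-number means centred on genotype (below the diagonal) and over 54 means centred on genotype and control RNA set (above), with a star where the permutation p adjusted over 28 pairs is under 0.05. The relations of Mxd4 with Mnt and of Myc with Mycn, Mxi1 and Mnt have stars on both sides, and those of Max with Mxd3 and Mnt have one below the diagonal only.

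Tumours with more Myc had more of the RNAs of ribosome building and growth metabolism and less of several Myc-repressed genes. These gene lists, like the others below, were drawn up from textbook roles with earlier results of these data known. In each tumour a list was scored as the mean of its tested genes, and 176 relations (8 members by 22 lists) were tested together, of which 58 passed. Myc had r = 0.75 with ribosome biogenesis (permutation p = 1e-05, the smallest that 100000 permutations can give, adjusted p = 0.000147, rho = 0.51), 0.69 with Myc-induced metabolism and translation (adjusted p = 0.000147, rho = 0.49) and -0.69 with Myc-repressed genes (adjusted p = 0.000147, rho = -0.64). Without the 2 farthest label numbers these were 0.54, 0.47 and -0.61.

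The counts of single genes have to be read against a wide background, since 3981 of 8768 genes (45.4%) moved with Myc in the limma slope fit, 23.5% of genes higher and 21.9% lower in tumours with more Myc. Of 37 tested genes of ribosome biogenesis, 31 were higher and 0 lower, with a median slope of 0.44 log2 for each log2 of Myc, where the median over all tested genes was 0.03. The nucleolar factor Ppan had a slope of 0.68 (SE 0.08) and nucleophosmin, Npm1, of 0.40 (SE 0.05). Of 28 genes of Myc-induced metabolism and translation, 18 were higher and 1 lower (median slope 0.39). They include Shmt2, the mitochondrial enzyme of serine and glycine metabolism, at 0.89 (SE 0.13), and Pa2g4 at 0.62 (SE 0.10).

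Of 17 Myc-repressed genes, 9 were lower and 1 higher (median slope -0.81). The integrin Itgb1 had a slope of -0.99 (SE 0.17) and the secreted guidance factor Slit3 of -2.96 (SE 0.55). Of the 10 tested genes of the Sin3 and histone deacetylase complexes that Mxd and Mnt recruit, 3 were lower and 0 higher, where 45.4% of all genes moved in either direction (median slope -0.02), among them Sin3b at -0.30 (SE 0.09) and Hdac1 at -0.41 (SE 0.14). Of 20 genes for Myc cofactors and turnover, 5 were higher, a share near the background of 23.5%, and 1 lower (median slope 0.18), with the deubiquitinase Usp36 at 0.47 (SE 0.13) and the acetyltransferase Kat2a at 0.46 (SE 0.13).

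The same tumours with more Myc had less of the stromal, basal and keratin genes. Myc had r = -0.72 with the basal and myoepithelial list, -0.71 with fibroblasts and collagen matrix, -0.67 with endothelium, -0.66 with macrophages and -0.64 with keratinization, each with a permutation adjusted p of at most 0.00022. All 21 of 21 fibroblast genes and 14 of 15 macrophage genes were lower with more Myc, against the background of 21.9%. The keratins Krt6a and Krt6b had slopes of -4.03 (SE 0.74) and -4.06 (SE 0.77). The luminal list did not follow Myc (r = 0.17). In a bulk tumour fewer cells of a type and less RNA in each cell cannot be told apart.

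With the luminal and fibroblast scores as covariates, Myc moved with 1755 genes (12.7% higher and 7.36% lower), and the relations with ribosome biogenesis (r = 0.50, adjusted p = 0.00352), metabolism (r = 0.46, adjusted p = 0.0102) and Myc-repressed genes (r = -0.37, adjusted p = 0.0486) stayed past the threshold. Under these covariates 19 of 37 ribosome biogenesis genes were higher and 0 lower, 10 of 28 metabolism genes were higher and 0 lower, and 3 of 17 Myc-repressed genes were lower and 1 higher. Slit3 (-0.73, adjusted p = 0.184) and Kat2a (0.15, adjusted p = 0.361) no longer passed. Between members, the relations of Myc with Mxi1 (r = 0.20), with Mycn (r = 0.35) and with Mnt (r = -0.21) were not past the threshold there, and that of Mxd4 with Mnt was (r = 0.40, adjusted p = 0.032). Myc was also lower on arrays with a higher median log2 value (r = -0.53 over the 53 label numbers), and the part of this in its relations was tested by 2 measures of array quality as covariates, under which ribosome biogenesis had r = 0.60 (adjusted p = 0.000704) and Mnt r = -0.10.

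**Figure D4:**
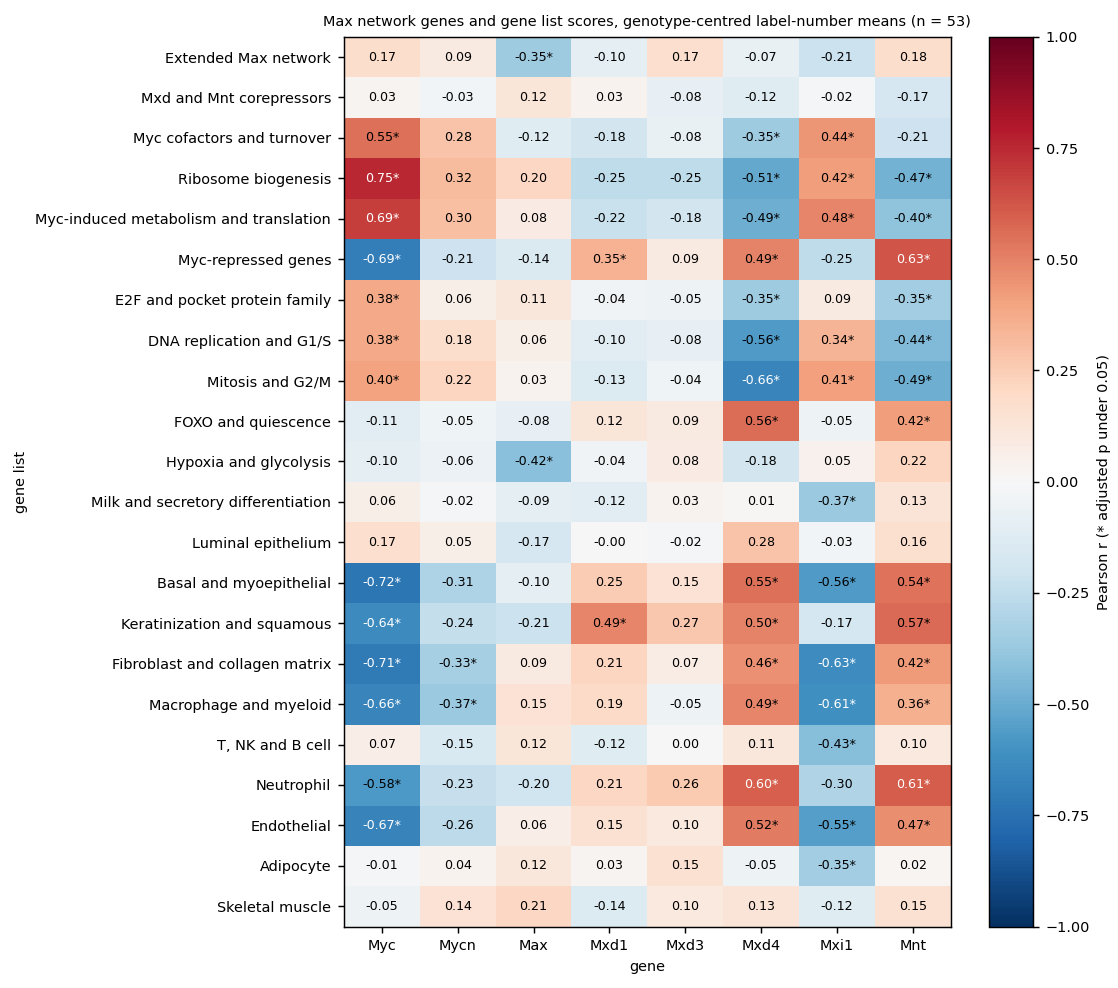
Pearson r of the 8 members with the scores of 22 gene lists over 53 label-number means centred on genotype, with a star where the permutation p adjusted over 176 relations is under 0.05. Myc is positive with ribosome biogenesis (0.75) where Mxd4 (-0.51) and Mnt (-0.47) are negative, and the Mxd3 column has no star.

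Genes of cell division were lower in tumours with more Mxd4, and their relation to Myc was weaker in size. Myc had r = 0.40 with mitosis (adjusted p = 0.0124) and 0.38 with DNA replication (adjusted p = 0.0204), but these rested on the 2 farthest label numbers, without which r was 0.12 and 0.08. Mxd4 had r = -0.66 with mitosis (adjusted p = 0.000147, rho = -0.66, r = -0.64 without the 2 farthest) and -0.56 with DNA replication (adjusted p = 0.000352, rho = -0.56). Whether the 2 members differ in these relations was not tested.

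Over all genes 22.2% were higher and 14% lower in tumours with more Mxd4. Of 34 tested mitosis genes 32 were lower and 0 higher (median slope -0.37 log2 per log2 of Mxd4, against 0.03 over all genes), and of 37 DNA replication genes 30 were lower and 0 higher (median slope -0.30). Survivin, Birc5, had a slope of -0.57 (SE 0.07) and the mitotic kinase Aurkb of -0.60 (SE 0.08). The replication factors Cdc45 and Cdc6 had slopes of -0.42 (SE 0.06) and -0.52 (SE 0.08). With the luminal and fibroblast covariates, where 7.94% of genes were lower, 22 of 34 mitosis genes and 23 of 37 replication genes were lower. The list of FOXO targets and quiescence moved with Mxd4 (r = 0.56, adjusted p = 0.00022), with 6 of 13 genes higher and 0 lower. Ribosome biogenesis moved against it (r = -0.51, adjusted p = 0.000587), with 22 of 37 genes lower.

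Tumours with more Mnt had less of the division and ribosome genes and more of the stromal ones. With more Mnt 25.4% of genes were higher and 19.4% lower. Of 34 mitosis genes 28 were lower (r = -0.49, adjusted p = 0.00182), of 37 replication genes 24, and of 37 ribosome biogenesis genes 24 (r = -0.47, adjusted p = 0.00164), with 0 higher in each list. Of 17 Myc-repressed genes 8 were higher and 0 lower (r = 0.63, adjusted p = 0.000147). Stromal genes were higher as well, with 20 of 21 fibroblast genes, and the neutrophil list had r = 0.61 (adjusted p = 0.000147) and the keratinization list 0.57 (adjusted p = 0.000147). With the luminal and fibroblast covariates the relations of Mnt with Myc-repressed genes (r = 0.52, adjusted p = 0.0032) and neutrophil genes (r = 0.51, adjusted p = 0.00352) passed, and those with mitosis (r = -0.27) and ribosome biogenesis (r = -0.27) did not. Mnt followed a measure of RNA quality, the 3′ to 5′ balance of the Gapdh control (r = 0.49). With that balance and the array median as covariates, the number of genes that moved with Mnt went from 3925 to 988 (11.3%), and of these lists mitosis passed (r = -0.39, adjusted p = 0.0284) while ribosome biogenesis (r = -0.24), Myc-repressed genes (r = 0.33), neutrophil (r = 0.31) and keratinization genes (r = 0.32) did not.

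Mxi1, although a repressor of the same network, rose with Myc (r = 0.54) and had no relation past the threshold with Mxd4 (r = -0.09). This contrast did not hold with the luminal and fibroblast covariates. There the limma slope on Mxi1 was 0.57 for Mxd4 (adjusted p = 0.0465) and 0.14 for Myc (adjusted p = 0.363). The slope of Mxi1 on Mxd4 was 0.15 there (limma adjusted p = 0.0505). With more Mxi1 23.7% of genes were higher and 21.1% lower. It was lower where stromal genes were higher, with r = -0.63 for fibroblasts (adjusted p = 0.000147) and -0.61 for macrophages (adjusted p = 0.000278) and 21 of 21 fibroblast genes lower. Of 34 mitosis genes 21 were higher, of 37 replication genes 20 and of 37 ribosome biogenesis genes 14, with 0 lower in each. The r of these 3 list scores (0.41, 0.34 and 0.42) fell to 0.25, 0.19 and 0.22 without the 2 farthest label numbers and did not pass by rank, so they rest on those tumours. Milk genes were lower with more Mxi1, 11 of 16 and 1 higher (r = -0.37, adjusted p = 0.023), with slopes of -5.17 for lactoferrin, Ltf (SE 0.85), and -4.42 for beta-casein, Csn2 (SE 0.82).

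Fewer relations were found for the other members. Max had r = -0.42 with hypoxia and glycolysis (adjusted p = 0.00837), where the glucose transporter Slc2a1 had a slope of -0.28 (SE 0.07) and Higd1a of -0.29 (SE 0.09). With the control set as a term neither gene passed (Slc2a1 -0.10, adjusted p = 0.891, and Higd1a adjusted p = 0.827), and the number of genes that moved with Max went from 745 (8.5% of those tested) to 14 (0.16%). Mxd1 had r = 0.49 with keratinization (adjusted p = 0.00362), with 6 of 9 genes higher where 4.86% of all genes were, but by rank the relation did not pass (rho = 0.23, adjusted p = 0.28) and all Mxd1 values are near background. For Mycn limma called 0 of 8769 genes (0%), with 738 under 0.05 unadjusted, and for Mxd3 32 of 8768 (0.365%), and 0 with the control set as a term (718 under 0.05 unadjusted). No list passed for Mxd3.

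**Figure D5:**
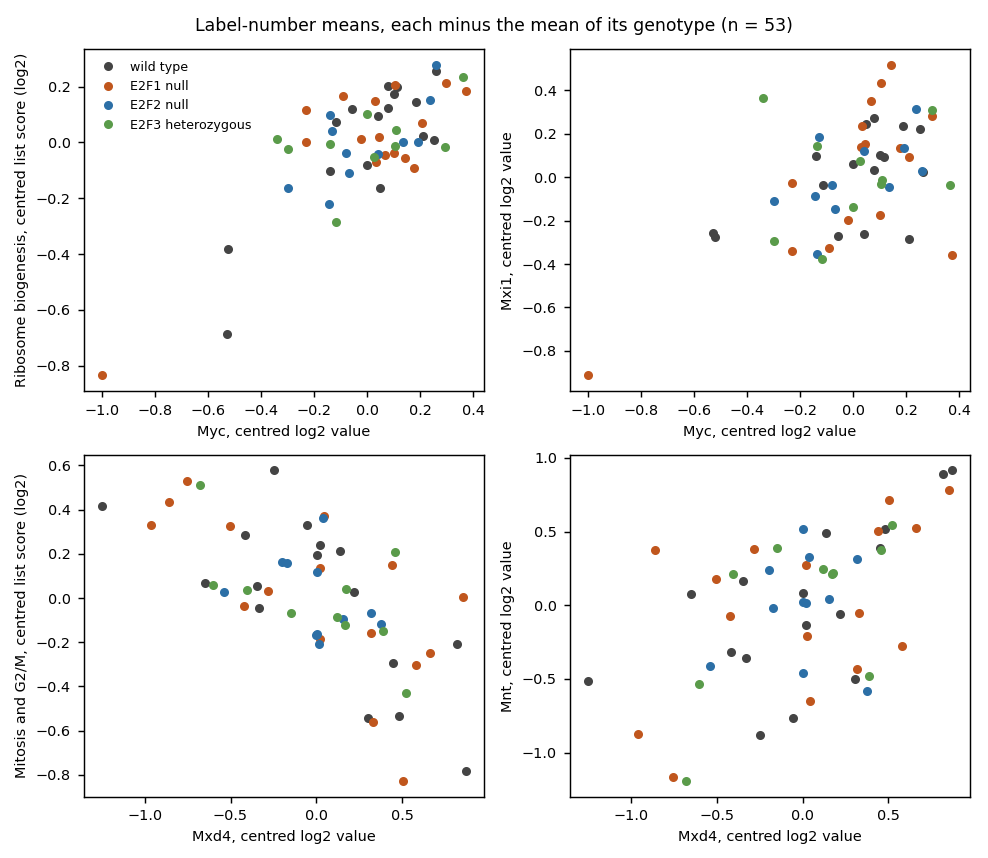
Centred log2 values of 53 label numbers, coloured by genotype: Myc against the ribosome biogenesis score (r = 0.75), Myc against Mxi1 (r = 0.54), Mxd4 against the mitosis score (r = -0.66) and Mxd4 against Mnt (r = 0.55). In the upper panels E2F1 null replicate 6 lies apart from the others at the lowest Myc. It is also far below them in Mxi1, but less so in the ribosome biogenesis score. The lower panels have no such lone point.

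The extended network around Mlx, which pairs with glucose-sensing partners and shares Mnt and Mxd proteins with Max, had no difference between genotypes that passed. Of Mga, a large repressor partner of Max, Mlx, Mlxip and Mlxipl, limma called 0 against the wild type, with 0 under 0.05 unadjusted as well. The largest differences from the wild type were 0.32 log2 for Mlxipl in the E2F2 null (SE 0.28) and -0.14 for Mlxip in the E2F1 null tumours (SE 0.11). Across tumours Mga was higher with more Mnt (slope 0.41, limma adjusted p = 4.66e-05), and also with the control set as a term (0.21, adjusted p = 0.0378) and with the luminal and fibroblast covariates (0.30, adjusted p = 0.00673). Its slopes on Mxd4 (0.23, adjusted p = 0.0282) and on Max (-0.29, adjusted p = 0.000112) did not pass with the control set as a term (0.17, adjusted p = 0.0558, and -0.06, adjusted p = 0.906). Mlx was lower with more Mxd4 (-0.21, adjusted p = 0.00164) and with more Mnt (-0.15, adjusted p = 0.0268), and with more Mxi1, Mlxip (-0.43, adjusted p = 0.00267) and Mlxipl (-0.86, adjusted p = 0.0202) were lower. With the luminal and fibroblast covariates these 4 slopes did not pass: Mlx was at -0.12 on Mxd4 (adjusted p = 0.0977) and -0.04 on Mnt (adjusted p = 0.699), Mlxip at -0.33 (adjusted p = 0.0789) and Mlxipl at -0.88 (adjusted p = 0.0668) on Mxi1. Nor did Mga on Mxd4 (0.12, adjusted p = 0.316).

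Each member was also set against the mean of the other tested genes of its own chromosome (8 relations). Mxi1 moved against chromosome 19 (r = -0.61, permutation adjusted p = 0.00016, rho = -0.59), and did so within the low (r = -0.71) and the high arrays (r = -0.77). Of 317 other genes there, 98 were lower and 55 higher with more Mxi1, 30.9% and 17.4%, where 21.1% and 23.7% of all genes were. Other chromosomes departed further from these shares, with 47.9% higher and 12.2% lower on chromosome 6 and 37.7% higher and 12.96% lower on chromosome 15. Mxd4 moved with chromosome 5 (r = 0.48, adjusted p = 0.001), Mxd1 with chromosome 6 (r = 0.40, adjusted p = 0.00608) and Mnt with chromosome 11 (r = 0.35, adjusted p = 0.0237). For Mxd1, whose values are all near background, the relation did not pass by rank (rho = 0.29, permutation adjusted p = 0.0708). Its r was 0.50 within the low and 0.19 within the high arrays. By single genes the shares for Mxd4 and Mnt were near the background: 23.2% of chromosome 5 genes were higher with more Mxd4 and 12.1% lower, where 22.2% and 14% of all genes were, and 27.1% of chromosome 11 genes were higher with more Mnt and 16.9% lower, where 25.4% and 19.4% were. Myc did not move with chromosome 15 (r = -0.02), and the values for Max, Mycn and Mxd3 lay between -0.16 and 0.10. With the luminal and fibroblast covariates the value for Mxi1 was -0.29 (adjusted p = 0.0835) and that for Mnt 0.44 (adjusted p = 0.00768).

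The genes whose pattern over the 53 label numbers was most like that of each member are given by Pearson r as a description. For Myc they were Ctage5 (0.82), the DNA repair enzyme Parp1 (0.80) and the mitochondrial ribosome factor Noa1 (0.80), and in the opposite direction Selenom (-0.81) and the hypoxia factor Hif1a (-0.80). For Mxd4 they were Nsmf (0.76), Susd6 (0.76) and the dynein heavy chain Dync1h1 (0.75), against the sterol pathway enzyme Fdps (-0.84) and the nucleolar factor Nol11 (-0.82). For Mnt they were Klhl22 (0.78), Klf7 (0.76) and the protease Furin (0.75), against Ufm1 (-0.72) and Mrpl50 (-0.72). For Mxi1 they were the methyltransferase Smyd2 (0.81), Cbs of cysteine synthesis (0.75) and the epithelial factor Grhl1 (0.74), against Akirin1 (-0.75) and Arhgdib (-0.75).

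For Max the closest genes, the clathrin adaptor Ap2b1 (0.86), Swsap1 (0.83) and the splicing factor U2af1 (0.80), fell to 0.17, 0.31 and 0.40 once the control set was taken out. The dim members had weaker partners. For Mxd1 they were Tiparp (0.59) and the cornified envelope gene Sprr1a (0.56), against Coq7 (-0.56). For Mxd3 they were Tollip (0.56), against Prepl (-0.57), and for Mycn Hemk1 (0.48), against Cd48 (-0.51).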

How the data were processed

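The series matrix holds 22690 probe sets (64 of them array controls) on 80 arrays as linear intensity, which the authors made with Affymetrix Expression Console and MAS5, per the submitters' processing notes (no version is stated there). Total RNA was labelled by the standard Affymetrix protocol, per the labels' protocols. Symbols came from the platform annotation: 20380 probe sets have 1 gene, 691 several and 1555 none. Values were taken as log2(intensity + 5). Probe sets above the 40th percentile of all values (74.6) on at least 10 arrays were kept, and each gene was read by its brightest one, which left 8769 of 12393 genes. limma 3.58.1 (R 4.3.3) was fitted over all 80 arrays with trend and robust variances, the label number as a random block (consensus correlation 0.159 by gene and 0.125 by probe set) and Benjamini-Hochberg adjustment at 0.05. The fit by probe set used no filter. Slopes of every tested gene on each member used the same model with genotype as a term. Correlations used numpy 2.4.6 with 100000 two-sided permutations, and the ranks for Spearman rho came from scipy 1.17.1. The steps were tested on simulated data. Array number, not read depth, limits the precision, and where the labels do not say that tumours came from separate animals, p-values measure only the spread between these samples. The members and gene lists were chosen with earlier results of these data known. Named genes follow a fixed rule: all member probe sets, the extended network, the 3 genes most and the 2 least like each member, and the 2 of smallest p in 10 lists, each on Myc or the member most correlated with the list. Alternatives were pseudocounts of 1 and 16, no filter, means over probe sets, no block, label-number means, quantile normalization, array quality covariates (the Gapdh 3′ to 5′ balance and the array median), luminal and fibroblast covariates, leaving out E2F1 null replicate 6 and, added after the data were seen, the control RNA set.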

Additional observations from a re-analysis of the deposited data

How the results depend on the processing

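No paired analysis was possible because the replicate numbers only count arrays in the order of the series and no label number is shared between genotypes. By probe set, 1 member was called over all 4 genotypes, and 0 within the low and 0 within the high control RNA arrays, where fewer arrays enter. Of 28 pairs, 6 passed, against 3 with luminal and fibroblast covariates and 2 within the high arrays. The relation of Max with Mnt turned from -0.44 to 0.19 with the control set as a term, to 0.15 within the low and to 0.47 within the high arrays, and that of Mxi1 with the endothelial list from -0.55 to 0.04 with luminal and fibroblast covariates; the cause was not tested. Of the list relations 58 passed, against 25 with array quality covariates, 20 with luminal and fibroblast covariates and 28 within the high arrays. Of the 8 relations with the member's own chromosome 4 passed, against 1, 2 and 2 under the same settings. Under the array quality covariates, the numbers of genes that moved were 2541 for Myc, 1 for Mycn, 111 for Mxd1, 52 for Mxd3, 1404 for Mxd4 and 988 for Mnt. With luminal and fibroblast covariates they were 1755 for Myc, 1161 for Max, 434 for Mxd1, 68 for Mxd3, 1844 for Mxd4, 2002 for Mxi1 and 1755 for Mnt. With the control set as a term they were 14 for Max and 0 for Mxd3. Within the low arrays they were 17 for Max, 118 for Mxd1, 0 for Mxd3 and 1729 for Mxd4, and within the high arrays 73 for Myc, 0 for Max, 0 for Mxd1, 0 for Mxd3, 1221 for Mxd4, 0 for Mxi1 and 286 for Mnt. Quantile normalization gave 421 for Mxd1 and 97 for Mxd3, and the fit without the block 50 for Mxd3. Of the other values, 90 counts stayed close to that of the main setting. Among single relations or differences, 353 kept their side of the threshold, 52 lost and 2 gained it. For these a change of sign was counted only where a value was past the threshold. Signal near background limits Mycn, Mxd1 and the 1448878_at and 1422970_at probe sets of Mxd3.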
